A study of Homo sapiens with 6 samples.

Results

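ATF4, DDIT3 (which encodes CHOP), ATF3, ATF5, CEBPB, CEBPG, TRIB3 and STC2 are transcription factors and feedback genes of the integrated stress response. They are 8 of the 60643 genes with a row in the table, and each symbol had 1 row. They were found by symbol. The list was chosen by gene function with the measured difference between the groups of this experiment already known, so the differences of these 8 genes are given as a description. How many of them passed the threshold is given beside the share over all genes, and nothing is supported with it.

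The cells were HCT116, an established human colorectal cancer line, carrying an inducible short hairpin RNA against CAPG, an actin-capping protein. In 3 libraries the cells had no doxycycline (labelled untreated, genotype WT), and in 3 libraries they had the drug at 100 ng/µl for 3 days, the unit as labelled (genotype CAPG knockdown). By their sample names all 6 libraries carried the hairpin construct, numbered 2, also those with genotype WT, and the labelled tissue is rectum. No other hairpin and no drug-treated cells without one were analysed here, so the drug and the hairpin cannot be told apart. Nothing states that replicates were separate cultures, so SD, SE and p-values measure how far these libraries vary, and that variation may be technical.

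The integrated stress response starts when kinases phosphorylate the translation factor eIF2 under amino acid shortage, endoplasmic reticulum (ER) stress, double-stranded RNA or mitochondrial and heme stress. Bulk translation then slows, while messages with short upstream reading frames, ATF4 first among them, are translated better. ATF4 is a basic leucine zipper (bZIP) activator that pairs with C/EBP proteins and switches on genes for amino acid supply, CHOP and ATF3. TRIB3 feeds back on ATF4 and CHOP. Much of this control acts on translation and protein, which RNA levels do not measure.

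CAPG itself was at 61.1, 56.9 and 53.7 FPKM without and at 8.18, 8.03 and 9.97 FPKM with doxycycline. FPKM is fragments per kilobase of transcript, scaled to sequencing depth, so levels of different genes can be set side by side. A rough estimate put 14200000 to 18100000 fragments behind each library. It was taken inside a fixed window of low values, which bounds what it can give. FPKM values summed to 521832 to 536037 in 5 libraries and to 586911 in replicate 3 with the drug. Of 9 colorectal epithelial markers 6 reached 1 FPKM in at least 3 libraries; KRT20, VIL1 and LGALS4 did not. The summed epithelial markers were at 1659 to 1861 FPKM without and 1868 to 2202 FPKM with the drug. Leukocyte markers summed to 4.399 to 5.17 and 2.59 to 2.77 FPKM, mostly CD68, with CD3E at 0, and 1 of 6 passed the filter. Hepatocyte markers summed to 1.26 to 1.46 and 2.84 to 3.60 FPKM, mostly SERPINA1, with TTR at 0. Fibroblast markers summed to at most 11.3 FPKM, nearly all COL1A1, and endothelial markers to at most 0.573 FPKM. The part of these marker shifts in the results was not tested.

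ATF4 is the central activator of the response. Its gene (ENSG00000128272, chromosome 22, 39519672 to 39522683, GRCh38, plus strand) was at 296, 259 and 254 FPKM in replicates 1, 2 and 3 without doxycycline. With the drug it was at 324, 331 and 361 FPKM. All 3 treated libraries lay above all 3 untreated ones, by a narrow margin for untreated replicate 1. The means were 269 ± 23.2 and 339 ± 19.2 FPKM (SD, n = 3 each), a ratio of 1.26 and a log2 difference of 0.33 (SE 0.09) on the log2(FPKM + 1) scale. By its mean over all 6 libraries ATF4 stood at the 98.2 percentile of level among the 14475 tested genes. The percentile was not computed for the untreated libraries alone, where its mean was 269 FPKM. In RNA from a whole culture, more RNA per cell and more cells with the RNA cannot be told apart.

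The processed pseudogenes of ATF4 resemble it and could share reads with it. The levels of ATF4P1, ATF4P2 and ATF4P4 were between 0.0290 and 0.372 FPKM over the libraries, and ATF4P3 was between 0.769 and 1.31 FPKM. ATF4P1 and ATF4P2 had identical values in every library. All were small beside ATF4.

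The promoter window of ATF4 is shown because the gene is the head of the response. It holds 250 bases before and 50 after the RefSeq start (GRCh38.p14, chr22:39520309-39520608, plus strand). Capitals mark the core TGACG of the cAMP response element (CRE), which reads CGTCA here because it lies on the opposite strand.
ATF4: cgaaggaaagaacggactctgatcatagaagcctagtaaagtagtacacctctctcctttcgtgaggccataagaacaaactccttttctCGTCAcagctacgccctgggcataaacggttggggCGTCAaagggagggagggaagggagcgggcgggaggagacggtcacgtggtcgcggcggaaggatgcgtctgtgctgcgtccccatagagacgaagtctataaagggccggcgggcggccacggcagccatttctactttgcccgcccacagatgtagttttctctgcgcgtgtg

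DDIT3 encodes CHOP, a bZIP partner of C/EBP proteins that is linked to cell death when stress persists. Its gene (ENSG00000175197, chromosome 12, 57516588 to 57521737, minus strand) was at 16.5, 16.5 and 16.5 FPKM in the 3 libraries without doxycycline. With the drug it was at 30.8, 33.5 and 42.0 FPKM. Untreated libraries differed by a ratio of 1.003 from lowest to highest, and treated ones by 1.365, replicate 3 being highest. Scaled to equal totals the untreated values were 16.6, 16.7 and 17.1 FPKM. So few libraries do not show that DDIT3 varied less without the drug. The means were 16.5 ± 0.0247 and 35.4 ± 5.85 FPKM, a ratio of 2.15 and a log2 difference of 1.05 (SE 0.11). This was the widest difference of the 8 genes, at the 99.8 percentile of all tested genes.

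The ratio of CHOP to ATF4 messenger differed as well. DDIT3 stood at 5.56%, 6.36% and 6.51% of the ATF4 level in the untreated libraries. It stood at 9.49%, 10.1% and 11.6% in the treated ones. The groups did not overlap in this ratio.

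DDIT3 shares part of its locus with other genes. The MARS1 gene, on the opposite strand, overlaps 982 of the 5150 bases of the DDIT3 locus, and no source used here says whether counting used strand. MARS1 encodes the methionyl-tRNA synthetase and was at 77.7 to 87.4 FPKM without and 99.2 to 107 FPKM with doxycycline. MBD6 overlaps the other end of the locus and was at 6.64 to 9.51 and 7.22 to 8.18 FPKM. AC022506.1 and MIR616, on the same strand, were listed at 0 in every library. How reads in these overlaps were assigned was not tested.

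The DDIT3 promoter window is printed because this gene had the largest difference (GRCh38.p14, chr12:57520465-57520764, minus strand). Capitals mark CCAAT boxes, CCAAT or its reverse ATTGG. The known amino acid response element of this gene lies further upstream and is not covered by the window.
DDIT3: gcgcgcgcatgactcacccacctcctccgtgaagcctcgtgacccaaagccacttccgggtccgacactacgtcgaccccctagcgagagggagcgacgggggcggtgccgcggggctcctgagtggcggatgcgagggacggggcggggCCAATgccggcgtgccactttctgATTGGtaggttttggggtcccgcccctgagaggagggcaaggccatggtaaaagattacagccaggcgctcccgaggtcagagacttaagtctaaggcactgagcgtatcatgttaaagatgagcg

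ATF3 encodes a bZIP factor that is induced early in stress and often represses its targets. The gene (ENSG00000162772, chromosome 1, 212565334 to 212620777, plus strand) was at 17.2, 16.7 and 15.6 FPKM without doxycycline. With it the values were 20.1, 23.7 and 23.8 FPKM. Treated replicate 1 was nearest to the untreated libraries, and the groups did not overlap. The means were 16.5 ± 0.828 and 22.5 ± 2.13 FPKM, a log2 difference of 0.42 (SE 0.09).

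CEBPB encodes C/EBP beta, a bZIP partner of ATF4 and CHOP, from a gene with a single exon. The gene (ENSG00000172216, chromosome 20, 50190830 to 50192668, plus strand) was at 21.96, 18.6 and 19.1 FPKM without and at 25.5, 26.8 and 31.7 FPKM with doxycycline. Untreated replicate 1 and treated replicate 3 were each the highest of their group, as for ATF4, and the groups did not overlap. The means were 19.9 ± 1.81 and 28.0 ± 3.24 FPKM, a log2 difference of 0.47 (SE 0.11). Its antisense neighbour CEBPB-AS1 did not exceed 0.354 FPKM.

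TRIB3 encodes a pseudokinase that binds ATF4 and CHOP and restrains them. The gene (ENSG00000101255, chromosome 20, 362835 to 397559, plus strand) was at 13.4, 11.1 and 10.7 FPKM without and at 19.0, 19.8 and 21.9 FPKM with doxycycline. The gap between the groups was wide compared with the spread inside each. The means were 11.7 ± 1.49 and 20.2 ± 1.46 FPKM, a ratio of 1.73 and a log2 difference of 0.74 (SE 0.11). After DDIT3 this was the next largest difference of the 8 genes, at the 99.4 percentile of all tested genes.

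The remaining 3 genes had overlapping groups. CEBPG encodes C/EBP gamma, the short C/EBP protein that pairs with ATF4 on amino acid genes (ENSG00000153879, chromosome 19, 33373685 to 33382686). It was at 19.6, 19.4 and 21.5 FPKM without and at 20.8, 21.1 and 22.1 FPKM with doxycycline, a log2 difference of 0.08 (SE 0.08). Untreated replicate 3 lay above treated replicates 1 and 2.

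STC2 encodes stanniocalcin, a secreted glycoprotein known as an ATF4 target (ENSG00000113739, chromosome 5, 173314713 to 173329503). It was at 25.2, 20.6 and 17.6 FPKM without and at 23.8, 21.5 and 19.7 FPKM with doxycycline. The highest and the lowest value both came from untreated libraries. The log2 difference was 0.04 (SE 0.13), and -0.01 with libraries scaled to equal totals, so that its sign depended on the scaling.

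ATF5 encodes an ATF4-related factor whose message also carries upstream reading frames (ENSG00000169136, chromosome 19, 49928702 to 49933935). It was at 14.3, 14.8 and 12.3 FPKM without and at 9.84, 10.4 and 13.8 FPKM with doxycycline, and was the only one of the 8 with a lower treated mean. Treated replicate 3 stood apart from the other treated libraries and inside the untreated range. The log2 difference was -0.27 (SE 0.13). Scaled to equal totals, the treated libraries (10.04, 10.45 and 12.67 FPKM) all lay below the untreated ones (12.75 to 15.03 FPKM). NUP62, a nuclear pore gene on the opposite strand, overlaps 1062 of the 5234 bases of the locus and was at 34.0 to 39.5 FPKM. On the same strand as NUP62, AC011452.2 spans the whole locus and did not exceed 3.75e-33 FPKM. IL4I1 overlaps 838 bases and did not exceed 0.275 FPKM. MIR4751, inside the locus, was listed at 0. How reads in these overlaps were assigned was not tested.

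**Figure D1:**
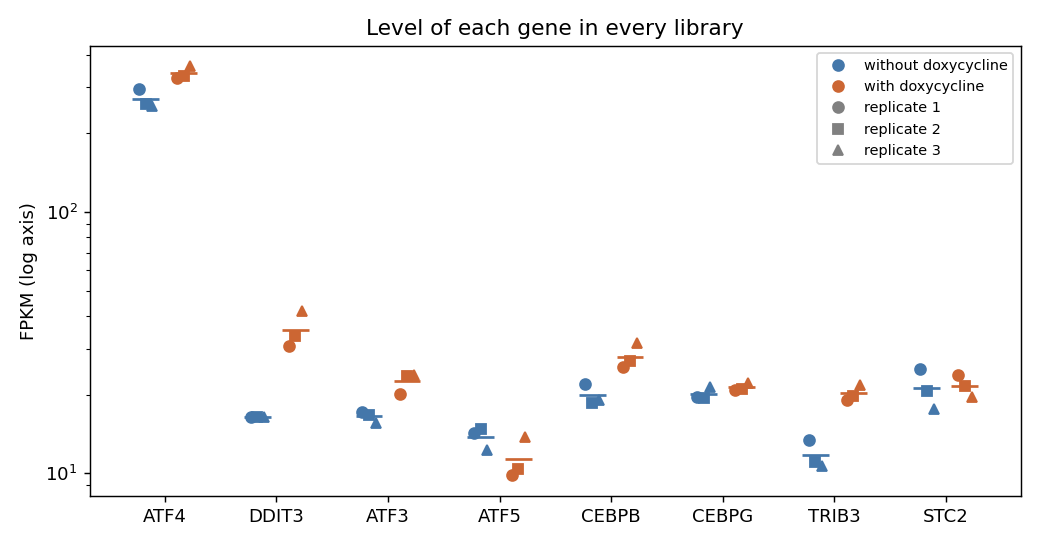
FPKM (log axis) of the 8 genes in each of the 6 libraries, blue without and orange with doxycycline, bars at the group means and symbols for replicates. ATF4 lies above all the others, the groups are apart for ATF4, DDIT3, ATF3, CEBPB and TRIB3, and they overlap for ATF5, CEBPG and STC2.

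All 8 genes passed the filter on low values. In 5 of them the 3 treated libraries lay above the 3 untreated ones, which was so for 17.0% of the 14475 tested genes. By limma across all genes the same 5 had an adjusted p under 0.05 and a higher mean, where 3.69% of tested genes were higher and 4.77% lower, and 0 of the 8 were lower (by unadjusted p under 0.05 also 0). Since the list was chosen with this contrast known, nothing is read from these counts. The median log2 change of all tested genes was -0.003. The count of 5 was 1 without the filter on low values, 3, 2 and 2 without untreated replicates 1, 2 and 3, and 4, 2 and 2 without treated replicates 1, 2 and 3.

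**Figure D2:**
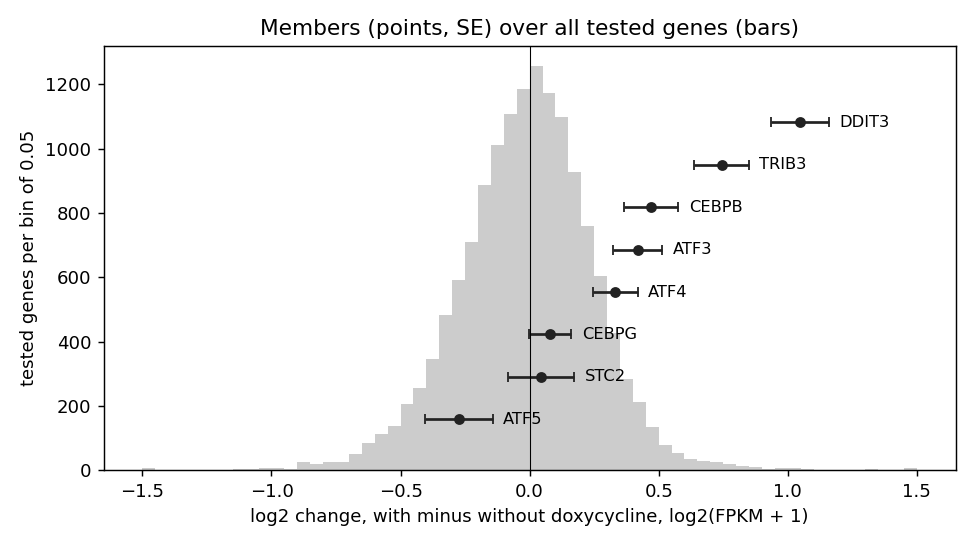
Log2 difference with minus without doxycycline on the log2(FPKM + 1) scale for the 8 genes (points, bars are SE) over the distribution of all 14475 tested genes (grey, tested genes per bin, values beyond 1.5 put in the outermost bins). DDIT3 and TRIB3 lie in the right tail, CEBPB, ATF3 and ATF4 on the right flank, CEBPG and STC2 near 0 and ATF5 on the left.

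Ordered by level, ATF4 came first in both groups, far above the rest. Without doxycycline STC2, CEBPG and CEBPB followed at 21.1, 20.2 and 19.9 FPKM, with overlapping ranges, then ATF3 and DDIT3 at 16.5 FPKM each, then ATF5 and TRIB3 at 13.8 and 11.7 FPKM. With doxycycline DDIT3 moved from rank 6 to rank 2 at 35.4 FPKM, and its range overlapped that of CEBPB at 28.0 FPKM. ATF3, STC2, CEBPG and TRIB3 formed a group with overlapping neighbours between 22.5 and 20.2 FPKM. ATF5 was last at 11.3 FPKM.

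Several of the genes had the same library as the highest of its group. Treated replicate 3, the library with the largest FPKM sum, held the highest treated value of 7 of the 8 genes, and STC2 was lowest there. Scaled to equal totals the treated ATF4 values were 331, 335 and 332 FPKM, against 298, 263 and 262 FPKM untreated. The DDIT3 values were then 31.4, 33.8 and 38.6 FPKM. Under that scaling replicate 3 remained highest for DDIT3, ATF5, CEBPB and TRIB3, but not for ATF4 or ATF3. It was then lowest for CEBPG and STC2. Among the untreated libraries replicate 1 was highest for 5 of the 8 genes. How often the same libraries were highest over all tested genes was not counted, so nothing particular to the 8 genes is read from these counts. The ATF4, DDIT3, ATF3, CEBPB and TRIB3 groups stayed apart with equal totals.

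**Figure D3:**
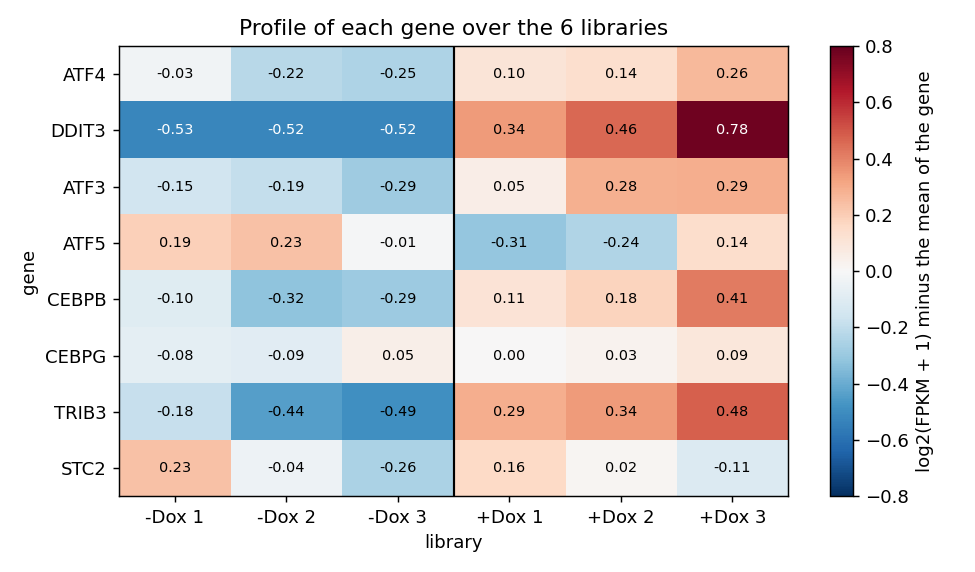
Level of each of the 8 genes in each library as log2(FPKM + 1) minus the gene's own mean over the 6 libraries, red above and blue below it, with the line between libraries without (-Dox) and with (+Dox) doxycycline. Among the treated libraries, not scaled to equal totals, replicate 3 is highest for 7 genes. ATF5, CEBPG and STC2 have overlapping groups, unlike the other genes.

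Likeness of profiles was measured as the root mean square difference between log2(FPKM + 1) values centred on each gene's mean, over the 6 libraries. Among the 8 genes the profile nearest to ATF4 was that of CEBPB (0.0844), followed by ATF3 (0.0850). DDIT3 was nearest to TRIB3 (0.194) and farthest from ATF5 (0.665). Outside the list, the 5 genes nearest to ATF4 were SPRYD3 (0.0105), RANGRF (0.0200), UBE2M (0.0238), BBC3 (0.0260) and PSPC1 (0.0277). The 5 nearest to DDIT3 over the same libraries were IER3 (0.116), RN7SKP80 (0.123), UBE2FP1 (0.129), SERPINA1 (0.139) and TRIML2 (0.145). RN7SKP80 was listed at 0 in all untreated libraries and at a mean of 1.06 FPKM in the treated ones, and UBE2FP1 had means of 0.177 and 1.29 FPKM. Both passed the filter only through the treated libraries, at levels where the added 1 FPKM sets much of the profile. DDIT3 had no neighbour as close as those of ATF4. IER3, an early response gene, was at 168 ± 9.26 FPKM without and 309 ± 43.5 FPKM with doxycycline, and BBC3, which encodes the cell death protein PUMA, at 9.46 ± 0.915 and 12.0 ± 0.887 FPKM. These are descriptions of 6 libraries in 2 groups, where any gene with a similar group difference comes out near.

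The promoter windows of ATF3 and CEBPG are printed because each holds the core of the C/EBP-ATF response element (CARE), TGATGNAA on either strand, to which ATF4 pairs bind. Both are RefSeq windows of GRCh38.p14 on the plus strand, ATF3 at chr1:212565157-212565456 and CEBPG at chr19:33373863-33374162. The first base of the match lies 191 bases before the start in ATF3 and 42 bases before it in CEBPG. Each gene has another window without a CARE, ATF3 at chr1:212614768-212615067 and CEBPG at chr19:33373459-33373758. Sequence outside the windows was not searched, and which start was used in these cells is unknown. Capitals mark the CARE and, in ATF3, also a reverse CCAAT box.
ATF3: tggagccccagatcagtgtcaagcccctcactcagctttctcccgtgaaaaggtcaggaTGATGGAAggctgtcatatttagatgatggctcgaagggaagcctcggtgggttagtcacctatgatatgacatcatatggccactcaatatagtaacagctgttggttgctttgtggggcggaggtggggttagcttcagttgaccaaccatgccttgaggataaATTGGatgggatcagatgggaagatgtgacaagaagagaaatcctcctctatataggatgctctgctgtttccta
CEBPG: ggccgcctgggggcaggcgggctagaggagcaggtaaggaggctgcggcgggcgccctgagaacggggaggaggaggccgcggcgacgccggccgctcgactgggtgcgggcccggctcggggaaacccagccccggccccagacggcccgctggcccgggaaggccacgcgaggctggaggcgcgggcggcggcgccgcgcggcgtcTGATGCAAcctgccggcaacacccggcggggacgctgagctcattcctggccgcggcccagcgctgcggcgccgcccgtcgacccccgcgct

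All 8 genes had RefSeq promoter windows, 17 in all since several have more than 1 start, and each motif was searched on both strands. A CARE match was found in ATF3 and CEBPG, and 4.46% of the 27305 genes with a window hold one. These letters were not in the windows of DDIT3 or TRIB3. The full CRE, TGACGTCA, was in no window of the 8 genes and in 2.25% of all genes. Its core, TGACG, which the full CRE contains, was in windows of ATF4, ATF5 and CEBPB and in 28.4% of all genes. CCAAT boxes were in DDIT3, ATF3, CEBPB, CEBPG and STC2 and in 39.7% of all genes. The ER stress element, searched only as exact CCAAT and CCACG with 9 bases between them, was in none of the 8 and in 0.0916% of all genes. In the DDIT3 window CCAAT is followed after 9 bases by CCACT, which differs in the last letter. Inexact copies were not searched, so the absence of the exact letters does not show that a gene lacks such an element. A match is a stretch of letters, not a measured binding site.

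Upstream start codons are the feature by which ATF4, ATF5 and CHOP messages respond to eIF2 phosphorylation. In the GENCODE 29 transcript with the longest coding part, 7 of the 8 genes had at least 1 ATG before the main start, as did 49.8% of 19561 coding genes. The leader of ATF4-201 holds 882 bases and 7 such codons, and in 2 of them the frame runs over the main start. ATF5-201 has 2 codons and 1 overlapping frame, the ATF3 transcript has 1 codon whose frame overlaps, and DDIT3-204 has 4 codons and none overlapping. In the transcripts with the longest coding part, a frame across the main start was found in 3 of the 8 genes and in 16.7% of coding genes. CEBPB-201 had 0 upstream codons. STC2-201, with the longest leader of the 8 at 1310 bases, had 11. Leader length was not taken into account. The files hold no isoform values, so which transcripts were present is unknown.

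Upstream of ATF4, 20 genes of eIF2 control were tested, of which 1 rose and 0 fell at a limma adjusted p under 0.05. Over the whole table these shares were 3.69% and 4.77%, so the count is near the background. Before adjustment, 6 had p under 0.05 in each direction, where the whole table had 13.6% with a higher and 14.3% with a lower mean. These are the shares to set beside the counts before adjustment in each list that follows. The median log2 change was 0.06. The gene that rose was PPP1R15B, the constitutive subunit of the phosphatase that reverses eIF2 phosphorylation. It was at 33.7, 34.5 and 36.4 FPKM without and at 61.5, 60.3 and 56.1 FPKM with doxycycline (log2 0.75, SE 0.08, limma adjusted p = 0.00228). Its call held in each of the 6 fits without 1 library. The stress-induced subunit PPP1R15A was at 18.6 ± 1.21 and 24.0 ± 2.496 FPKM (adjusted p = 0.0568, limma).

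The 4 eIF2 kinases, named here after their values were seen, did not pass the limma test. EIF2AK3, the ER kinase PERK, was at 6.83 ± 1.04 and 4.72 ± 0.522 FPKM (log2 -0.45, adjusted p = 0.0557). EIF2AK1, the heme and mitochondrial stress kinase HRI, was at 57.6 ± 1.248 and 50.6 ± 0.694 FPKM (adjusted p = 0.131). EIF2AK4, the amino acid sensor GCN2, was at 15.4 ± 0.302 and 16.3 ± 1.66 FPKM, and EIF2AK2, the RNA sensor PKR, at 15.0 ± 1.06 and 17.6 ± 3.12 FPKM (0.630 and 0.319). Kinase activity is not read by RNA levels.

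Among 15 proteins that bind, degrade or modify ATF4 or CHOP, limma called 0 in either direction, and before adjustment 2 with a higher and 1 with a lower mean had p under 0.05. The smallest p-values were those of the ubiquitin ligase gene ZFP91 (25.3 ± 0.928 and 30.8 ± 1.47 FPKM, adjusted p = 0.0629) and of EGLN3, a prolyl hydroxylase (7.86 ± 1.02 and 5.79 ± 0.680 FPKM, 0.0817). ZFP91 passed without treated replicate 3 (0.0462).

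The other bZIP factors include partners of the 8 genes. Of 47 listed, 11 did not pass the filter, and of 36 tested 3 rose and 2 fell by limma, while 7 and 3 had p under 0.05 before adjustment, and the median was 0.11. Over all tested genes the shares were 3.69% and 4.77%, and nothing particular to the list is read from its counts. JUN, an AP-1 subunit, rose from 9.47 ± 0.822 to 13.6 ± 0.741 FPKM (log2 0.48, adjusted p = 0.0212), and so did JUNB (57.5 ± 5.60 to 77.3 ± 9.20 FPKM, 0.0430) and NFE2L2, the oxidative stress factor NRF2 (46.7 ± 1.01 to 59.5 ± 3.78 FPKM, 0.0308). CREB3L2, an ER membrane factor, fell from 7.17 ± 0.224 to 4.17 ± 0.404 FPKM (log2 -0.66, adjusted p = 0.00767), as did ATF6B, a relative of the ER stress sensor ATF6 (17.7 ± 1.72 to 12.8 ± 1.23 FPKM, 0.0342). JUNB is named as the fifth called gene after its values were seen. The 3 higher genes became 1, 0 and 0 without untreated replicates 1, 2 and 3 and 1, 0 and 2 without treated replicates 1, 2 and 3. The 2 lower became 1 without each of untreated replicates 1 and 2 and treated replicates 2 and 3.

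The closest paralogs of the 8 genes were compared as well. Of 9 tested, JUN rose and 0 fell by limma (2 and 0 before adjustment, median 0.12). JUN missed the threshold in the fits that dropped untreated replicate 2 or 3, or treated replicate 1 or 2. TRIB1, at 127 ± 6.03 and 113 ± 6.32 FPKM (adjusted p = 0.185), and TRIB2, at 12.9 ± 0.602 and 12.9 ± 0.632 FPKM (0.990), did not pass. All treated libraries lay below all untreated ones for TRIB1 and above them for TRIB3, as in 17.5% and 17.0% of all tested genes. The TRIB2 groups overlapped. CEBPA (3.05 ± 0.460 and 3.37 ± 0.302 FPKM) and CEBPD (2.24 ± 0.777 and 2.57 ± 0.371 FPKM) were far below CEBPB and CEBPG in level, and CEBPE was listed at 0. JDP2, a bZIP repressor close to ATF3, was at 5.24 ± 0.678 and 6.90 ± 0.557 FPKM (0.0906). FOS, FOSL1 and FOSL2 did not pass (0.476, 0.402 and 0.292).

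Of 49 tested ATF4 target genes in 3 lists, 10 rose (20.4%) and 5 fell (10.2%) by limma, against 3.69% and 4.77% of the whole table. Before adjustment 24 and 8 had p under 0.05, against 13.6% and 14.3%. In 23 of them the treated libraries all lay above the untreated ones, and in 7 all below, against 17.0% and 17.5% of all tested genes. The 8 and the 7 are near those shares. The median log2 change was 0.21, against -0.003 for all tested genes. The lists were written with earlier results of these data known, and some of these genes are known targets of other stress pathways too.

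In the amino acid list of 22 genes, ALDH1L2 and CBS stayed under the filter, and of 20 tested 4 rose and 2 fell (10 and 3 at an unadjusted p under 0.05, median 0.17). SLC3A2, the shared chain of amino acid exchangers, rose from 74.6 ± 3.53 to 106 ± 5.42 FPKM (adjusted p = 0.00853, limma). ASNS, asparagine synthetase, rose from 75.9 ± 2.09 to 105 ± 10.0 FPKM (0.0173), and PSAT1, of serine synthesis, from 55.0 ± 1.21 to 71.1 ± 3.00 FPKM (0.0215). SLC7A11, the cystine carrier, also rose (0.0220). PYCR1, which makes proline, fell from 73.2 ± 4.43 to 52.5 ± 5.42 FPKM (log2 -0.47, adjusted p = 0.0201). CTH, which makes cysteine, fell from 9.14 ± 0.901 to 6.03 ± 0.701 FPKM (0.0258). SLC7A11 and CTH are named after their values were seen. The 4 higher genes became 1 and 0 without untreated replicates 1 and 2, and 2 without each of treated replicates 1 and 2. The 2 lower became 0 in each of those 4 fits and 1 without untreated replicate 3.

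The tRNA list holds synthetases, which load amino acids onto tRNA, and the tRNA export factor XPOT. Of 13 tested, 4 rose and 0 fell by limma, while 9 and 0 had p under 0.05 before adjustment, and the median was 0.22. SARS1 rose from 71.2 ± 1.96 to 100.3 ± 5.89 FPKM (log2 0.49, adjusted p = 0.00845). TARS1 (94.7 ± 6.67 to 126 ± 8.52 FPKM), CARS1 (29.3 ± 2.59 to 39.6 ± 3.41 FPKM) and MARS1, which overlaps DDIT3, also rose (0.0247, 0.0300 and 0.0402). These encode the synthetases for serine, threonine, cysteine and methionine. The 4 became 0 and 2 without untreated replicates 2 and 3, and 2 and 1 without treated replicates 1 and 2. MARS1 missed the threshold with equal totals (0.0643).

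The list of stress regulators and secreted factors was split. Of 20 genes, VLDLR, NUPR1, FGF21 and INHBE stayed under the filter, and of 16 tested 2 rose and 3 fell by limma (5 and 5 at an unadjusted p under 0.05, median 0.04). CHAC1, which degrades glutathione, rose most, at 6.43, 6.18 and 4.37 FPKM without and 14.6, 14.2 and 17.5 FPKM with doxycycline (log2 1.31, SE 0.14, adjusted p = 0.00228). SESN2, an inhibitor of mTORC1, rose from 4.79 ± 0.339 to 7.37 ± 0.753 FPKM (0.0216). KLHL24, a ubiquitin ligase adaptor, fell from 12.4 ± 0.381 to 7.30 ± 0.515 FPKM (log2 -0.69, 0.00466). DDIT4, an mTORC1 inhibitor that hypoxia also induces, fell from 155 ± 7.04 to 104 ± 7.86 FPKM (log2 -0.57, 0.00696), and so did CCNG2, named after its values were seen (log2 -0.52, 0.0285). SESN2 missed the threshold when untreated replicate 2, untreated replicate 3 or treated replicate 1 was dropped (0.0894, 0.0560 and 0.0615). The 3 lower genes became 2 without untreated replicates 2 and 3 and treated replicate 2.

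CHOP target genes were few. Of 10 listed, BCL2 stayed under the filter, and of 9 tested 2 rose and 1 fell by limma (5 and 2 at an unadjusted p under 0.05, median 0.23). The 2 that rose were CHAC1 and SESN2, which are in the ATF4 list as well. ERO1A, an ER oxidase that CHOP and hypoxia induce, fell from 55.4 ± 7.04 to 37.3 ± 1.61 FPKM (log2 -0.55, adjusted p = 0.0151). This call was lost without untreated replicate 2 (0.0591) and treated replicate 2 (0.0531). The 4 cell death genes of the list, named after their values were seen, did not pass and differed in sign. The death receptor gene TNFRSF10B was at 49.3 ± 2.80 and 44.7 ± 2.24 FPKM and the death gene BCL2L11 at 9.47 ± 0.109 and 7.72 ± 0.484 FPKM (0.308 and 0.0944, limma adjusted). BBC3, whose values stand above, and PMAIP1, at 46.0 ± 5.06 and 48.5 ± 2.61 FPKM, had higher treated means (0.0844 and 0.633).

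The other branches of the ER stress response were covered by 21 genes. Of these 5 rose and 0 fell by limma, while 11 and 0 had p under 0.05 before adjustment, and the median was 0.22. HSPA5, the chaperone BiP, was at 108, 113 and 112 FPKM without and 166, 170 and 191 FPKM with doxycycline (log2 0.66, adjusted p = 0.00304). DNAJB11 (0.00558), HERPUD1 (0.0100) and MANF (0.0294) rose too, as did SDF2L1 (0.0350), named after its values were seen. The branch sensors and factors ATF6 (9.05 ± 0.626 and 9.86 ± 0.212 FPKM), ERN1 (4.21 ± 0.158 and 4.13 ± 0.614 FPKM) and XBP1 (29.6 ± 1.22 and 35.3 ± 3.69 FPKM) did not pass. The 5 became 2 and 3 without untreated replicates 2 and 3, and 3 without treated replicate 2.

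**Figure D4:**
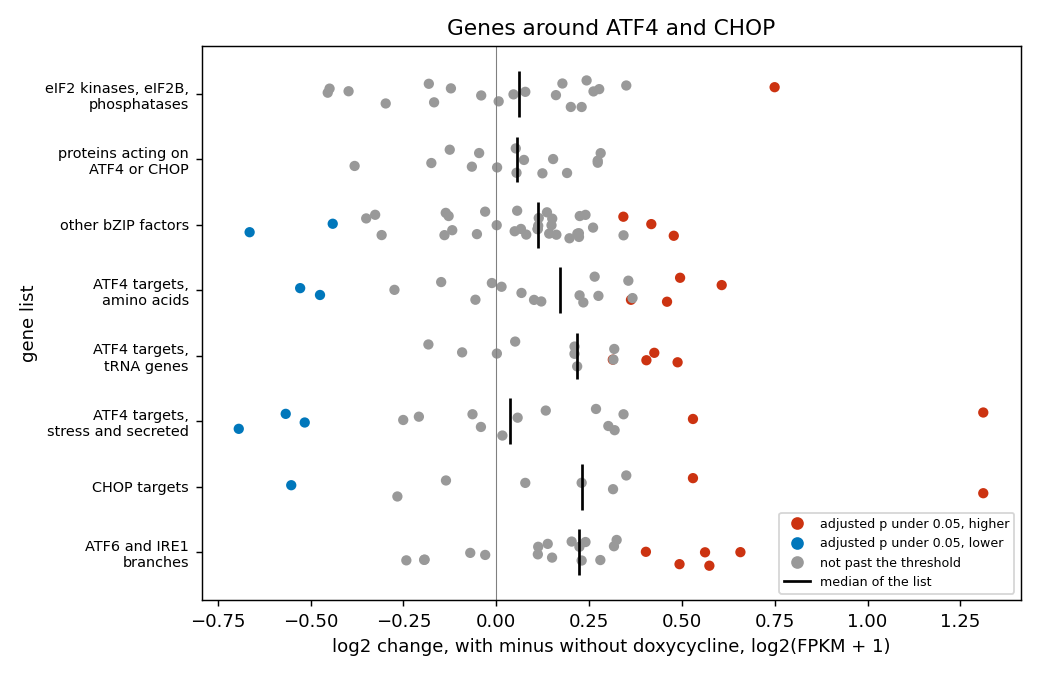
Log2 difference with minus without doxycycline on the log2(FPKM + 1) scale for each tested gene of 8 lists (points; red and blue passed a limma adjusted p under 0.05, grey did not), with the median of each list as a black line. The tRNA, CHOP target and ER lists have the highest medians, at 0.22, 0.23 and 0.22, and the other bZIP, amino acid, stress and CHOP lists hold blue points as well as red ones.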

How the data were processed

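RNA was extracted with TRIzol and sequenced, per the labels' protocols. The deposited table gives 1 value per gene and library. The authors' values are taken as FPKM because they are not whole, have unequal sums, and their lowest values fall with gene length; the header names no unit. Per the submitters' processing notes, the build was hg19 and the tools included kallisto, RSEM, Cufflinks, STAR, BWA and Bowtie, with no roles given. The loci are those of GRCh38, since 39290 of 39300 versioned identifiers shared with GENCODE 29 had its locus, starts counted from 0. Depth was estimated from the lowest values of 3987 single-exon genes, as the median inside a fixed window that bounds the result. On that rough estimate 3 fragments in 1 kb correspond to 0.166 to 0.211 FPKM, counting error only.

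The 14475 genes that reached 1 FPKM in 3 or more libraries entered a limma fit (version 3.58.1, R 4.3.3) of log2(FPKM + 1) (trended, robust, two-sided, Benjamini-Hochberg over all tested genes, threshold 0.05), after a check on simulated data. The check drew independent noise for each gene and planted fewer changes than were called in the data, on the log2(FPKM + 1) scale. Its rates may thus not hold for the data. It recovered 6.8% of planted changes of 1.25-fold, 43.6% of 1.5-fold, 81.6% of 2-fold and 97.6% of 4-fold. Of its calls 5.12% were false. Genes that did not pass may therefore still differ, most of all by small ratios. The log scale understates changes of low genes. The 8 genes and the lists were chosen with earlier results of these data known. Named genes are the 8, up to 4 called genes of each list with the smallest p (up to 2 where none was called), all tested paralogs, the 5 nearest profiles of ATF4 and DDIT3, overlapping genes, pseudogenes, CAPG and those marked as named later. Promoter windows are from RefSeq (GRCh38.p14) and leaders from GENCODE 29. Alternatives were other pseudocounts, filters, scalings and variance models, a replicate block, and leaving out each library.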

Additional observations from a re-analysis of the deposited data

How the results depend on the processing

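Other filters, variance models and the replicate block leave the log2 differences of the 8 genes unchanged by construction. Leaving out 1 library cannot move them by as much as 1 within-group SD, so these fits say nothing about their stability. Other pseudocounts and scalings, which could move them further, moved them by less than 1 within-group SD. What changed between the alternatives was which calls passed. Without a filter on low values, where many more genes share the adjustment, 53 genes were higher and 100 lower. Of the 8 genes 1 was then called. List counts higher were 0 for other bZIP factors, amino acid targets and paralogs, 1 for tRNA genes, stress and CHOP targets, and 2 for the ER branches, and counts lower were 1 for bZIP and stress genes and 0 for amino acid and CHOP targets. With a mean of at least 5 FPKM, 2 eIF2 control genes were higher and 2 lower. Equal totals gave 1 eIF2 control gene lower and median ratio scaling 2 higher. Without trend and robust fitting 354 genes were higher and 4 of the 8 genes were called, ATF4 no longer, with 1 bZIP factor higher and 1 lower, 2 tRNA genes and 3 ER genes higher. The cause of these differences was not tested.

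The labels give both groups the replicate numbers 1 to 3. Deviations of same-numbered libraries from their group means correlated at -0.043, 0.009 and -0.023 over genes, and no library correlated best with its own number. No pairing was seen, but with 3 libraries per group a weak shared batch could go unseen. With the replicate block 69 genes were higher and 142 lower, 2 of the 8 genes were called, counts higher were 0 for bZIP factors, amino acid targets, tRNA genes and paralogs, 1 for stress and CHOP targets and 2 for ER genes, and counts lower were 1 for bZIP factors and 0 for amino acid targets.

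Leaving out 1 library gave 76 to 412 genes higher and 147 to 588 lower, and 2 to 4 of the 8 genes higher. Ranges higher were 0 to 2 for bZIP factors, 0 to 4 for amino acid targets, 0 to 3 for tRNA genes, 1 to 3 for stress targets, 1 to 2 for CHOP targets, 2 to 5 for ER genes, and 0 to 1 for paralogs and ATF4 regulators. Ranges lower were 0 to 1 for eIF2 control and CHOP targets, 1 to 2 for bZIP factors, 0 to 2 for amino acid targets and 2 to 3 for stress targets. The log2 change of TRIB2 changed sign with equal totals (-0.048) and ranged from -0.030 to 0.036 over these fits, below 0 without untreated replicate 2 or treated replicate 2. CEBPD ranged from -0.033, without untreated replicate 3, to 0.32.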
